A study of Mus musculus with 4 samples.

Results

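Cadherins are cell surface adhesion proteins, and the 93 rows of the count table that carry the name of a numbered cadherin (Cdh) or protocadherin (Pcdh) gene are described here, out of 55421 rows in all. Within this family, each member was taken by its gene name alone, whatever its values. They comprise 5 type I classical cadherins, 13 type II classical cadherins, 5 other cadherins (Cdh13, Cdh16, Cdh17, Cdh23 and Cdh26), 12 non-clustered protocadherins and 58 protocadherins of the alpha, beta and gamma clusters. Pcdha11 occupied 2 rows, so the 93 rows hold 92 gene symbols. The RNA came from primary CD1 mouse spermatogonial cultures, which the study grows from the testes of young pups on a layer of arrested fibroblasts taken from outbred mouse embryos, in a medium with N2 supplement, bFGF and GDNF. The labels put each growth factor at 10 ng/ml, while the study's recipe lists another amount of GDNF. The 2 Veh libraries came from vehicle-treated cultures in complete medium. The 2 NRRA libraries came from cultures given nutrient restriction, in which most of the medium is a balanced salt solution, together with retinoic acid. In the study's recipe that solution dilutes the complete medium, bFGF and GDNF included, although the labels give both groups the same amounts. Less growth factor in NRRA therefore cannot be told apart from nutrient restriction or retinoic acid in the results below. Groups follow the titles and treatment labels, since a protocol field of the labels names NRRA for all 4 libraries. No altered allele is named for either group, and the time of treatment is in the study's methods but not in the labels. The study describes its sequencing replicates as biologically independent, while the labels do not name the cultures or mice behind each library, and p-values measure the spread between these libraries.

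Classical cadherins bind the same cadherin on the neighbouring cell through calcium-dependent extracellular repeats and hold on to actin through β-catenin and α-catenin. Protocadherins have similar repeats but lack the catenin-binding tail, and in the alpha and gamma gene clusters many variable first exons are each joined to a few constant exons, which with the single-exon beta genes gives neurons a surface identity. In the testis, E-cadherin (Cdh1) is a known surface marker of undifferentiated spermatogonia, while N-cadherin (Cdh2) and cadherin 11 (Cdh11) are typical of Sertoli cells and fibroblasts.

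Sequencing gave totals of 28022265 and 30715160 counts for the Veh libraries and of 31604769 and 29214798 for the NRRA libraries, and levels are given as CPM, the usual unit of read counts scaled to a fixed library size, in which 3 counts corresponded to between 0.0921 and 0.111 CPM. The counts of markers that rose or fell stand beside 27.9% of all genes tested called higher and 28.4% called lower. Of 12 germ cell markers all were detected, with summed levels of 2471 and 2531 CPM in Veh and 2331 and 2330 CPM in NRRA, and 3 rose and 8 fell, among them Kit (differentiating spermatogonia, log2 fold change 5.59) and Zbtb16 (undifferentiated spermatogonia, -2.43). The 16 fibroblast markers were all detected too, with sums of 9753 and 9670 CPM in Veh and 7611 and 7451 CPM in NRRA, and 13 of them fell and 2 rose. Fn1 alone made up most of these sums, at 6143 and 6087 CPM in Veh and 4362 and 4352 CPM in NRRA. The median log2 fold change of the list was -0.29. Of 11 Sertoli markers 7 were tested, 2 rose and 2 fell, and the sum was 135 and 147 CPM in Veh and 121 and 118 CPM in NRRA, with Fshr at 0 in every library. In a mixed culture of this kind fewer cells of a type and less RNA per cell cannot be told apart, and the part of these cell types in the results below was not tested.

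Of the 93 members, 60 had enough counts for a test, 33 did not, and 9 had no count in any library. Between NRRA and Veh, 21 of the 60 passed the edgeR quasi-likelihood test at an adjusted p of 0.05, which is 35.0% of them against 56.4% of all 20232 genes tested. Of the 21, 10 rose and 11 fell, beside background shares of 27.9% for higher and 28.4% for lower. A change of at least 2-fold was seen in 11 members, 6 higher and 5 lower, while 13.3% of all genes tested passed both limits. The share hides a split by class, since 20 of the 28 tested members outside the clusters were called against 1 of the 32 inside them. Many members were scarce: 49 of the 60 tested averaged under 10 CPM, and 11 of these 49 were called, beside 38% of all genes in that range.

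**Figure D1:**
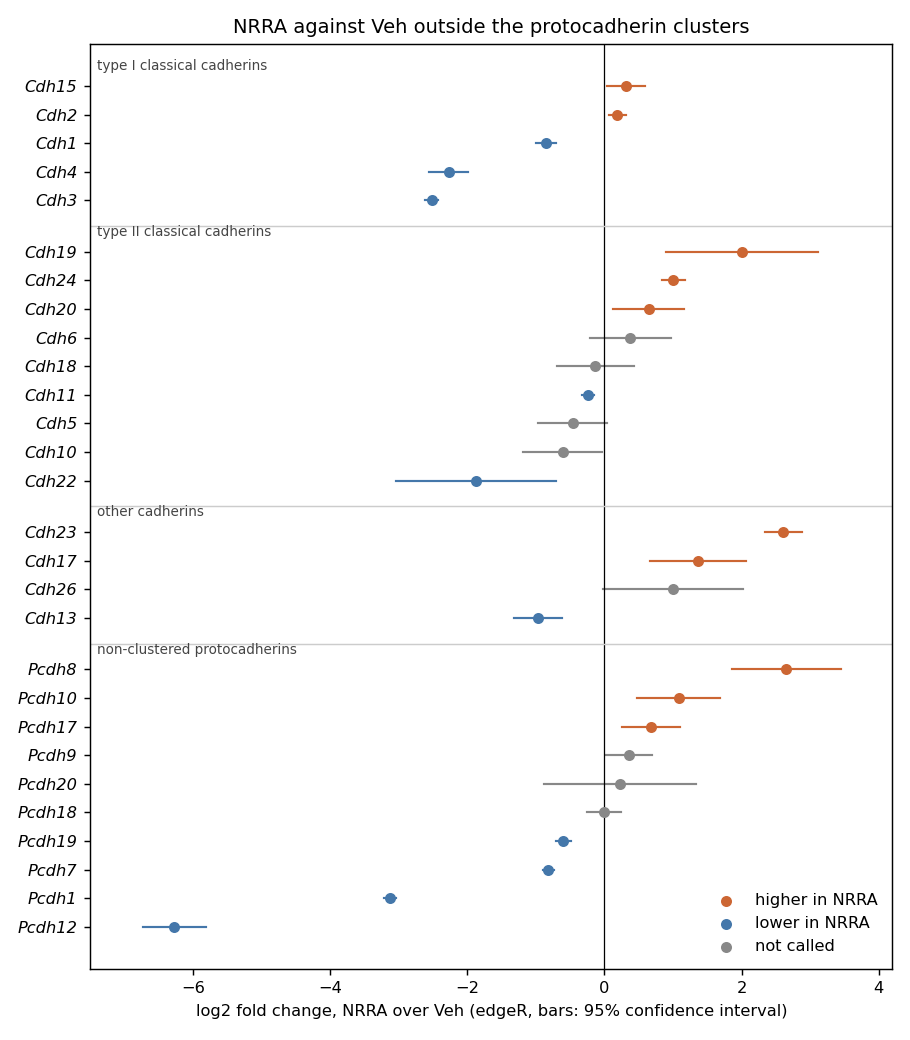
Log2 fold change of NRRA over Veh (x axis) for the 28 tested cadherins and non-clustered protocadherins, with points for edgeR estimates and bars for 95% confidence intervals, and colour for the call at an adjusted p of 0.05. Pcdh12 lies farthest to the left at -6.27, followed by Pcdh1, Cdh3 and Cdh4, and Pcdh8 and Cdh23 lie farthest to the right at 2.65 and 2.61.

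All 5 type I classical cadherins were called, 3 lower and 2 higher, beside 56.4% of all genes tested called either way. Their median log2 fold change was -0.86 against 0.00029 over all genes tested. The summed level of the 5 fell from 220 and 226 CPM in Veh to 93.4 and 93.6 CPM in NRRA. P-cadherin (Cdh3, ENSMUSG00000061048, chromosome 8, 106510891 to 106557297, plus strand) carried most of that loss. Cdh3 stood at 132 and 130 CPM in the Veh libraries and at 22.8 and 22.7 CPM in the NRRA libraries. Both NRRA libraries lay far below both Veh libraries, and the difference was 5.74-fold (log2 fold change -2.52, SE 0.047, edgeR adjusted p = 2.45e-24). E-cadherin (Cdh1, ENSMUSG00000000303, chromosome 8, 106603351 to 106670246, plus strand), the next cadherin gene along the same strand, measured 33.6 and 36.4 CPM in Veh and 18.9 and 19.8 CPM in NRRA. Its groups did not overlap either, but the drop was smaller, 1.81-fold (log2 fold change -0.86, SE 0.071, edgeR adjusted p = 7.27e-11). R-cadherin (Cdh4), best known from retina and other neural tissue, had 14.6 and 16.5 CPM in Veh and 3.72 and 2.69 CPM in NRRA, a 4.83-fold fall (log2 fold change -2.27, SE 0.14, edgeR adjusted p = 1.53e-13). The 3 that fell are thus spread over a wide range of levels in Veh, with Cdh4 the lowest in CPM. Of a list of 8 epithelial markers, 6 were tested, 3 fell and 1 rose, beside 28.4% and 27.9% of all genes. The sum was 420 and 398 CPM in Veh and 225 and 227 CPM in NRRA. Most of it was Esrp1 (214 and 203 CPM in Veh, 68.7 and 69.1 CPM in NRRA) and Epcam (160 and 149 CPM in Veh, 130 and 134 CPM in NRRA). These fell, as did Ocln (log2 fold change -1.64), while Krt19 rose (0.87). Krt8 and Krt18 were not called, and Cldn6 and Cldn7 had too few counts for a test.

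The 2 type I members that rose did so by little. N-cadherin (Cdh2) measured 33.9 and 35.7 CPM in Veh and 39.9 and 39.3 CPM in NRRA, a 1.14-fold rise (log2 fold change 0.19, SE 0.059, edgeR adjusted p = 0.00898). M-cadherin (Cdh15), known from muscle, measured 6.08 and 7.63 CPM in Veh and 8.04 and 9.07 CPM in NRRA (1.24-fold, edgeR adjusted p = 0.0470). The groups did not overlap for either gene, but both calls were lost with DESeq2 (adjusted p = 0.0874 for Cdh2 and 0.242 for Cdh15) and when Veh replicate 1 was left out (edgeR adjusted p = 0.0683 and 0.391). Without Veh replicate 1 or without Veh replicate 2, the log2 fold change of Cdh15 was 0.16 or 0.49, against 0.31 with all 4 libraries. Leaving out NRRA replicate 1 also ended the call of Cdh2 (edgeR adjusted p = 0.0581), and leaving out NRRA replicate 2 that of Cdh15 (0.258).

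**Figure D2:**
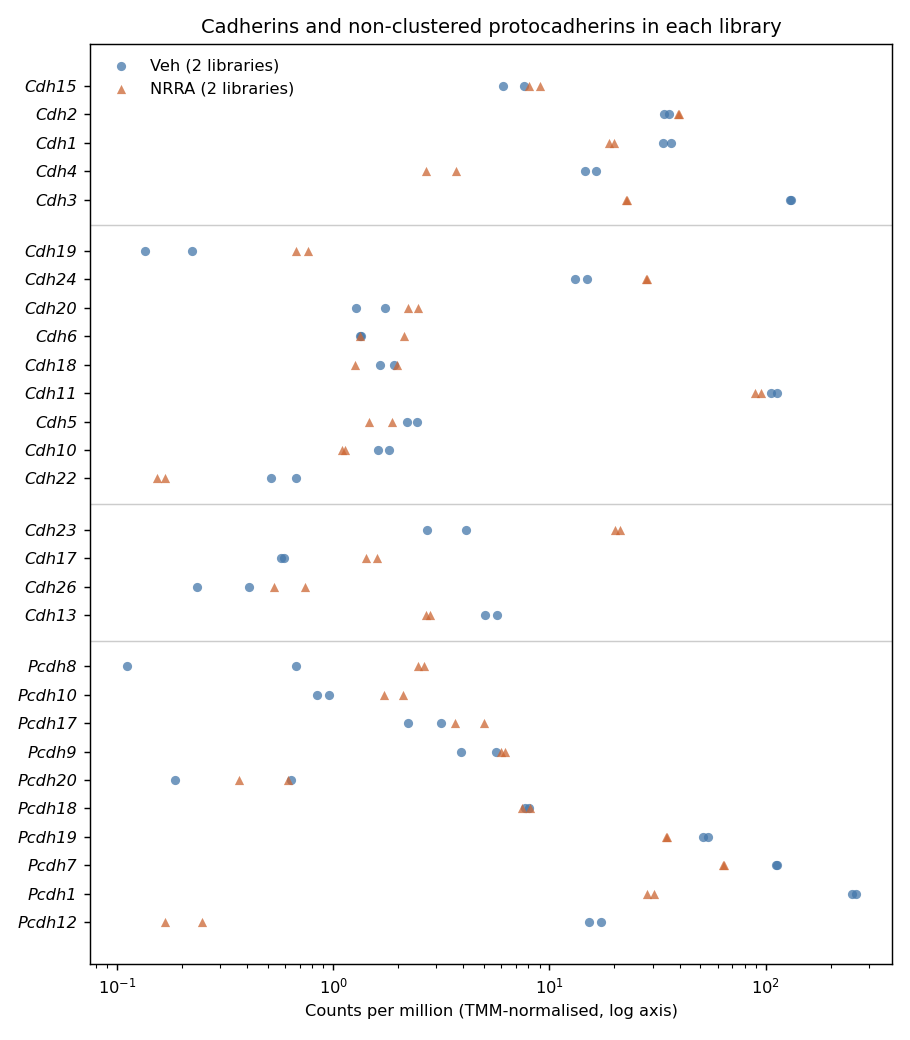
CPM on a log axis for each of the 28 tested cadherins and non-clustered protocadherins, with circles for the 2 Veh libraries and triangles for the 2 NRRA libraries. The libraries of a group lie close together for the abundant members and apart for those near 3 counts, such as Pcdh8 in Veh at 0.111 and 0.672.

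Among the 13 type II classical cadherins, 9 were tested, 3 rose, 2 fell and 4 were not called. The share called was 55.6%, close to the 56.4% of all genes tested. Their summed level hardly moved, at 131 and 135 CPM in Veh and 134 and 127 CPM in NRRA. Cadherin 11 (Cdh11), the mesenchymal member that made up most of this sum, measured 106 and 113 CPM in Veh and 95.1 and 89.8 CPM in NRRA. The groups were close but did not overlap, and the fall was 1.19-fold (log2 fold change -0.25, SE 0.042, edgeR adjusted p = 1.47e-05). With libraries scaled to their totals alone its log2 fold change was -0.16. Of its longest transcript, 20.2% is near-identical to the pseudogene Gm3365, so reads may have been shared between them. Cadherin 24 (Cdh24, ENSMUSG00000059674, chromosome 14, 54631231 to 54641364, minus strand) went the other way. It measured 15.0 and 13.1 CPM in Veh and 28.3 and 27.9 CPM in NRRA, 2.01-fold higher, with no overlap of the groups (log2 fold change 1.01, SE 0.081, edgeR adjusted p = 4.45e-11).

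The other type II members were scarce. Cdh19, known from Schwann cell precursors, had 6 and 4 counts in Veh against 22 and 23 in NRRA (log2 fold change 2.00, SE 0.54, edgeR adjusted p = 0.00251). Cdh20 had 47 and 38 counts in Veh against 80 and 67 in NRRA (log2 fold change 0.64, SE 0.25, edgeR adjusted p = 0.0304), and Cdh22 had 14 and 20 in Veh and 5 and 5 in NRRA (-1.87, SE 0.57, adjusted p = 0.00637). Of 8 neural and glial markers, all under 10 CPM, 1 rose and 2 fell, beside 38% called either way among genes in that range, with sums of 22.1 and 24.8 CPM in Veh and 21.8 and 22 CPM in NRRA. In all 3 cadherins the groups were apart, yet none was called by DESeq2 (adjusted p = 0.0550, 0.223 and 0.103), and the calls of Cdh20 and Cdh22 were lost when Veh replicate 2 or NRRA replicate 1 was left out. VE-cadherin (Cdh5), the endothelial cadherin, measured 2.43 and 2.18 CPM in Veh and 1.87 and 1.46 CPM in NRRA, a difference that did not pass the test (log2 fold change -0.46, 95% confidence interval -0.96 to 0.037, edgeR adjusted p = 0.109). Cdh6, Cdh10 and Cdh18 were likewise not called, with log2 fold changes of 0.37, -0.61 and -0.13. Of the 4 members without a test, Cdh7 had no count, Cdh9 and Cdh12 had at most 1 count in a library, and Cdh8 had 0 and 0 in Veh and 1 and 11 in NRRA.

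The cadherins outside the classical types included the largest rise of any Cdh gene. Cdh23 (ENSMUSG00000012819, chromosome 10, 60302748 to 60696490, minus strand), a very long cadherin that forms the tip links of inner ear hair cells, measured 4.13 and 2.72 CPM in Veh and 21.3 and 20.2 CPM in NRRA. Every NRRA value exceeded every Veh value, and the rise was 6.10-fold (log2 fold change 2.61, SE 0.13, edgeR adjusted p = 3.28e-15). Cdh17, the liver-intestine cadherin, rose from 16 and 17 counts to 46 and 48 (log2 fold change 1.37, SE 0.34, edgeR adjusted p = 0.00133). T-cadherin (Cdh13), which is anchored in the membrane by a lipid and lacks a cytoplasmic tail, fell from 5.71 and 5.04 CPM to 2.79 and 2.69 CPM (log2 fold change -0.97, SE 0.17, edgeR adjusted p = 2.46e-05). Cdh26 had 11 and 7 counts in Veh against 24 and 16 in NRRA and was not called (log2 fold change 1.00, 95% confidence interval -0.028 to 2.02, edgeR adjusted p = 0.0923), and Cdh16 had at most 4 counts.

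Promoter sequences from RefSeq (GRCm38.p6) were found for 10 of the called members, and the 250 bases before the transcription start are shown for Cdh24 and Cdh23, the most abundant and the most changed of the cadherins that at least doubled. Capitals mark a GC box (GGGCGG, read on both strands).
Cdh24: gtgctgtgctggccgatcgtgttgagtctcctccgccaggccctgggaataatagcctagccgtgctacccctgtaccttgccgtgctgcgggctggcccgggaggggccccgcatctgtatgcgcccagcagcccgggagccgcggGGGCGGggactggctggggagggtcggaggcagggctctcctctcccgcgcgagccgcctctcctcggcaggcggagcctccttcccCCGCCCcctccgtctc
Cdh23: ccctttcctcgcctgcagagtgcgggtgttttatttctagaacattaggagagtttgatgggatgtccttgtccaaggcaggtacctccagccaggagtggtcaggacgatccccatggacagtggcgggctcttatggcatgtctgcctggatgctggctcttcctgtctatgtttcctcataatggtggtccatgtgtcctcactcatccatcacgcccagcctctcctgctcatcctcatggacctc
The Cdh24 window (chr14:54641365-54641614, minus strand) is 72.8% G or C and holds 2 GC boxes, which begin 103 and 16 bases before the start. The Cdh23 window (chr10:60696491-60696740, minus strand) is 54.4% G or C and holds none, and the median over 32851 mouse promoter windows of this length was 52.4%. The same windows were searched on both strands for the E-box CAGGTG, which the repressors of the Snail and Zeb families recognise, and for AGGTCA, the half-site of retinoic acid receptors, and no motif overlapped another. Neither was present in any of the 10 promoters, beside 17.2% and 14.0% of all promoters, and a GC box was present in 6 of the 10, beside 32.7% of all promoters. Of the 10, 7 belong to members that rose, and Cdh1, Cdh3, Cdh4, Pcdh1 and Pcdh12, which fell, were not among those searched.

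Of the non-clustered protocadherins 10 were tested, and 3 rose and 4 fell, beside 27.9% and 28.4% of all genes. This class lost the most RNA of any, from summed levels of 459 and 452 CPM in Veh to 150 and 153 CPM in NRRA. Pcdh1 (ENSMUSG00000051375, chromosome 18, 38185914 to 38212053, minus strand), an adhesion protein of epithelia, accounted for most of it. Pcdh1 measured 262 and 251 CPM in Veh and 28.2 and 30.6 CPM in NRRA. The fall was 8.74-fold with no overlap (log2 fold change -3.13, SE 0.042, edgeR adjusted p = 2.66e-27), the lowest adjusted p of any member.

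Pcdh12 (ENSMUSG00000024440, chromosome 18, 38267089 to 38284402, minus strand), the vascular endothelial protocadherin, showed the largest fold change of the family. It had 413 and 518 counts in Veh, or 15.2 and 17.4 CPM, and 8 and 5 counts in NRRA, or 0.246 and 0.166 CPM. NRRA libraries were therefore left close to the level of 3 counts, and the difference was 77.2-fold (log2 fold change -6.27, SE 0.22, edgeR adjusted p = 1.54e-18). Of 10 endothelial markers, 8 were tested, 4 fell and 2 rose, beside 28.4% and 27.9% of all genes, and their sum was 129 and 129 CPM in Veh and 96.9 and 94.9 CPM in NRRA. Flt1, Pecam1 and Kdr fell, with log2 fold changes of -1.92, -1.96 and -1.46, and so did Esam, which had 31 and 25 counts in Veh against 1 and 8 in NRRA. Flt1, the most abundant of the list in Veh, measured 65.1 and 66.6 CPM there and 17.1 and 17.8 CPM in NRRA. Erg and Egfl7 rose, by 0.77 and 0.28 on the log2 scale, and Cldn5 and Tie1 had at most 4 counts in any library. Whether endothelial cells had a part in the level of Pcdh12 was not tested.

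Pcdh7 and Pcdh19 fell by less. Pcdh7 measured 113 and 112 CPM in Veh and 63.3 and 64.0 CPM in NRRA, 1.76-fold lower (log2 fold change -0.82, SE 0.040, edgeR adjusted p = 1.86e-15). Pcdh19, the X-linked gene known from an epilepsy of girls and from binding to N-cadherin, measured 51.2 and 54.1 CPM in Veh and 34.5 and 35.1 CPM in NRRA (1.51-fold lower, edgeR adjusted p = 7.32e-10). In both genes the replicates lay close together and the groups apart. In the annotation, 21.1% of the exonic bases of Pcdh7 are overlapped by 4932441J04Rik on the opposite strand, and the strand setting of the counting is not given in the sources used here.

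The 3 that rose were scarce in Veh. Pcdh8, known from the somites of the embryo and from synapses, had 3 and 20 counts in Veh against 86 and 74 in NRRA, which is 0.111 and 0.672 CPM against 2.64 and 2.46 CPM. The Veh libraries differed from each other, but both lay below the NRRA libraries (log2 fold change 2.65, SE 0.39, edgeR adjusted p = 1.56e-06). The size depended on which Veh library was kept, with a log2 fold change of 1.92 without Veh replicate 1 and 4.47 without Veh replicate 2, where it rests on 3 counts. Pcdh10 had 26 and 25 counts in Veh against 56 and 63 in NRRA (log2 fold change 1.08, SE 0.29, edgeR adjusted p = 0.00263). Pcdh17 had 60 and 94 counts in Veh against 162 and 110 in NRRA (log2 fold change 0.68, SE 0.20, edgeR adjusted p = 0.00575). DESeq2 called Pcdh8 but neither of these (adjusted p = 0.0568 and 0.0780), and the call of Pcdh17 was also lost without Veh replicate 1 and without NRRA replicate 1, where its log2 fold change was 0.45 and 0.44. Pcdh9, Pcdh18 and Pcdh20 were not called, with log2 fold changes of 0.36, -0.0087 and 0.23, of which Pcdh18 at 7.67 and 8.03 CPM in Veh and 7.49 and 8.14 CPM in NRRA had overlapping groups and an interval of -0.26 to 0.24. Pcdh11x and Pcdh15 had too few counts for a test, at most 15 in a library.

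The promoters of Pcdh8, the most changed of the risers, and of Pcdh7 and Pcdh19, the most abundant of the fallers with an entry, are shown in the same way, with GC boxes in capitals.
Pcdh8: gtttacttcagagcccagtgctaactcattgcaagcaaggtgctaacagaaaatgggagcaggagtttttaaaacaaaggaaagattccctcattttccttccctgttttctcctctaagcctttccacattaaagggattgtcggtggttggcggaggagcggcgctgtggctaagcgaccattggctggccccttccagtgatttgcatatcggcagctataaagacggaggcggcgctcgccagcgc
Pcdh7: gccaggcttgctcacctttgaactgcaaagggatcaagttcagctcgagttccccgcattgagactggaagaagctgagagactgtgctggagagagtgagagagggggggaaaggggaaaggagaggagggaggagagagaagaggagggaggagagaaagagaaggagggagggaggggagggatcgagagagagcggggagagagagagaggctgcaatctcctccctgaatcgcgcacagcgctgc
Pcdh19: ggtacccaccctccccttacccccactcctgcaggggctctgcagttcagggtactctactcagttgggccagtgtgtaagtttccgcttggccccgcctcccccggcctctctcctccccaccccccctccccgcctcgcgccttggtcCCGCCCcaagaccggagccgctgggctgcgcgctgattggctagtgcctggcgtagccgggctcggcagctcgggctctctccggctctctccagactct
The windows are chr14:79771313-79771562 (minus strand), chr5:57717831-57718080 (plus strand) and chrX:133688994-133689243 (minus strand). Pcdh8 and Pcdh7 had no GC box, like Cdh23, with 51.2% and 58.4% G or C, and Pcdh19 had 1 GC box, beginning 100 bases before the start, with 69.2% G or C. A GC box was thus found in members that rose, such as Cdh24, and in members that fell, such as Pcdh19, and it was missing from members of both kinds.

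Levels of different genes can be compared only per length, so CPM were divided by the length of the longest annotated transcript. Outside the clusters and on this scale, Pcdh1 led in Veh at 47.4 CPM per kb (SD 1.42, n = 2), followed by Cdh3 at 29.8, Cdh11 at 19.4, Pcdh7 at 12.8, Cdh1 at 7.91, Cdh2 at 7.19, Pcdh19 at 5.11 and Cdh24 at 4.02 CPM per kb. The libraries of neighbours in this order did not overlap. In NRRA the order began with Cdh11 at 16.4 CPM per kb (SD 0.656, n = 2), followed by Cdh2 at 8.18, Cdh24 at 8.06, Pcdh7 at 7.25, Pcdh1 at 5.42, Cdh3 at 5.19 and Cdh1 at 4.37 CPM per kb. Of these, Cdh2 and Cdh24 differed by no more than their libraries did, and so did Pcdh1 and Cdh3. By this length Pcdh1 and Cdh3 moved from the first and the second place to the fifth and the sixth, and Cdh24 from the eighth to the third. With all annotated exonic bases as the length, Cdh3 (29.8) and Pcdh1 (29.2 CPM per kb) changed places at the top in Veh. In NRRA on that scale Cdh11 was again first, at 10.4, but was followed by Cdh24 at 8.06, Pcdh7 at 6, Cdh3 at 5.19, Cdh2 at 4.91, Cdh1 at 4.23 and Pcdh1 at 3.34 CPM per kb. The places of all these members but Cdh11 in NRRA thus depend on the length used.

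**Figure D3:**
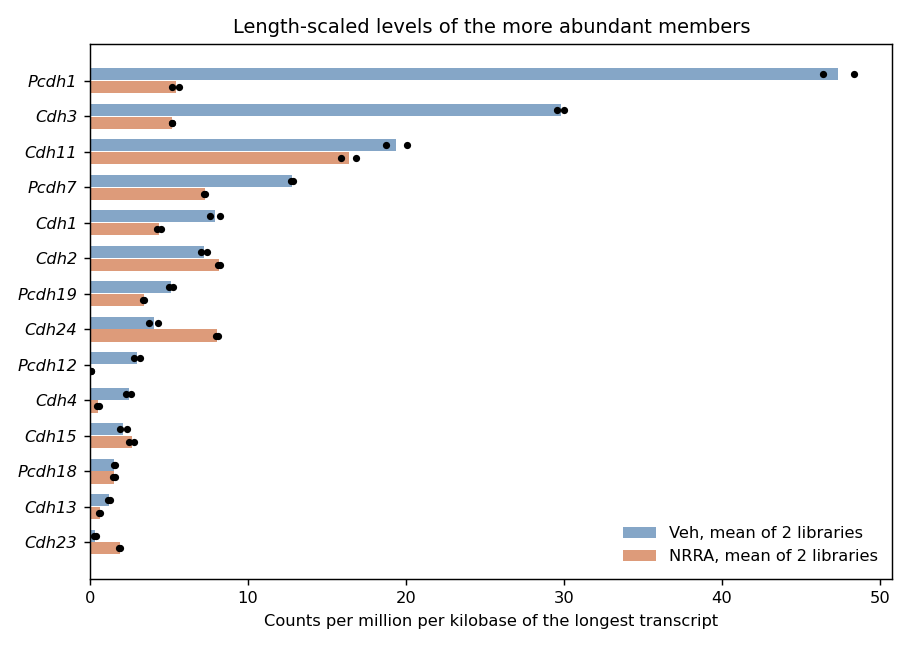
CPM per kb of the longest transcript (x axis, linear from 0) for the 14 cadherins and non-clustered protocadherins that reached 1 in either group, with bars for the mean of 2 libraries and dots for the libraries. Pcdh1 and Cdh3 have the longest bars in Veh, at 47.4 and 29.8, and Cdh11 has the longest in NRRA, at 16.4.

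As a share of the summed length-scaled level of all Cdh genes, Cdh3 went from 38.7% in Veh to 10.2% in NRRA as the mean of 2 libraries, Cdh11 from 25.2% to 32.2%, Cdh2 from 9.32% to 16.1% and Cdh24 from 5.22% to 15.9%. Cdh1 held 10.3% in Veh and 8.60% in NRRA. Among the non-clustered protocadherins Pcdh1 went from 66.7% to 27.3%, Pcdh7 from 18% to 36.5% and Pcdh19 from 7.21% to 17.0%. Pcdh7 and Pcdh19 thus held a larger share in NRRA although their own levels were lower there.

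Of the members that fell, 4 form 2 pairs of neighbours, while Cdh4, Cdh22 and Cdh13, which fell by more than Cdh1, lie in neither. On chromosome 18, Pcdh1 and Pcdh12 are 55035 bases apart on the same strand with 3 annotated genes between them. Of 18 tested genes within 500 kb that are no members, 9 fell and 1 rose, beside 28.4% and 27.9% of all genes. Their median log2 fold change was -0.31. Of the 18, 2 fell by at least 2-fold, Spry4 (-2.91), an inhibitor of growth factor signalling, and 9630014M24Rik (-2.38), both named after their values were seen. The 22 gamma protocadherins, left out of this count as members, also reach into the window, and 1 of them fell and 0 rose. On chromosome 8, Cdh3 and Cdh1 are 46053 bases apart on the same strand, and of 24 tested genes within 500 kb that are no members 7 fell, close to the 28.4% of all genes, and 2 rose, with a median of -0.099 and a lowest value of -0.59. Cdh3 thus fell by more than any other tested gene in its window, and both Pcdh1 and Pcdh12 fell by more than any other in theirs.

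The 58 clustered protocadherins, which lie side by side on chromosome 18, held 1 call among 32 tested, beside the 56.4% of all genes. Their summed level was 182 and 185 CPM in Veh and 177 and 173 CPM in NRRA. Of the 32 fold changes 24 were below 0 and 8 above, with a median log2 fold change of -0.20 and a median SE of 0.27, and 20 had a 95% confidence interval inside a 2-fold change either way. The other 12 intervals reached beyond 2-fold, so a 2-fold difference was not excluded for these genes, and 30 of the 32 averaged under 10 CPM. Reads from the constant exons are shared, since between 31.5% and 66.8% of the exonic bases of each gamma a or b gene are annotated to other genes on the same strand, and how the counting treated such reads is not given in the sources used here.

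The alpha cluster was close to silent. Of its 14 rows, 11 had at most 3 counts in any library, the sum was 0.664 and 0.706 CPM in Veh and 0.583 and 0.465 CPM in NRRA, and only Pcdhac2 was tested, with 8 and 11 counts in Veh against 6 and 11 in NRRA (log2 fold change -0.29, edgeR adjusted p = 0.704). The beta genes, each of which is a single exon with no constant part, summed to 8.37 and 9.34 CPM in Veh and 8.63 and 8.04 CPM in NRRA. Of 22 beta genes 9 were tested and none was called by edgeR or DESeq2, with 1 at an unadjusted p under 0.05. That was Pcdhb2, with 20 and 11 counts in Veh against 6 and 8 in NRRA (log2 fold change -1.28, 95% confidence interval -2.43 to -0.12, edgeR adjusted p = 0.0561), and the highest value was 0.57 for Pcdhb18 (95% confidence interval -0.54 to 1.69). The most abundant, Pcdhb22, had 74 and 73 counts in Veh against 90 and 77 in NRRA, with overlapping CPM. The next, Pcdhb17, also overlapped, with 44 and 50 counts in Veh against 57 and 34 in NRRA.

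The gamma cluster held nearly all of the clustered RNA, and all 22 of its genes were tested. Gamma a and b genes summed to 54.8 and 54.8 CPM in Veh and 47.5 and 48.9 CPM in NRRA, groups that did not overlap, and 18 of the 19 genes had a fold change below 0, with a median log2 fold change of -0.21. None of the 19 was called by edgeR or DESeq2 and 0 had an unadjusted p under 0.05, the most abundant being Pcdhga7 at 8.59 and 8.60 CPM in Veh and 8.57 and 7.54 CPM in NRRA. Pcdhga12, the next of the gamma a genes, measured 4.65 and 5.31 CPM in Veh and 4.11 and 4.55 CPM in NRRA, and the highest log2 fold change of that group was -0.075, for Pcdhga1. Gamma b genes ranged from -0.45 for Pcdhgb8 to 0.055 for Pcdhgb5, with the most abundant, Pcdhgb2 and Pcdhgb4, both at -0.21. The lowest value of the 19, -0.53 for Pcdhga8, became 0.053 without Veh replicate 1. Scaling to library totals alone raised the log2 fold change of every gene by about 0.090.

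Of the 3 gamma c genes, 1 was called. Pcdhgc3, the most abundant clustered member, measured 96.6 and 96.9 CPM in Veh and 104 and 97.6 CPM in NRRA. Its groups lay close together and did not pass the test (log2 fold change 0.059, 95% confidence interval -0.024 to 0.14, edgeR adjusted p = 0.221), although it was called higher with libraries scaled to their totals (log2 fold change 0.15). Pcdhgc5 measured 20.2 and 21.7 CPM in Veh and 14.3 and 17.0 CPM in NRRA, apart between the groups and the 1 call of the clusters (1.34-fold lower, log2 fold change -0.42, SE 0.089, edgeR adjusted p = 2.2e-04). Pcdhgc4 had 37 and 37 counts in Veh against 57 and 40 in NRRA and was not called (log2 fold change 0.25, edgeR adjusted p = 0.490). Other genes cover 38.5% of the exonic bases of Pcdhgc3 on the same strand and 28.4% on the opposite strand, and Gm26672 and other genes cover all those of Pcdhga10.

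**Figure D4:**
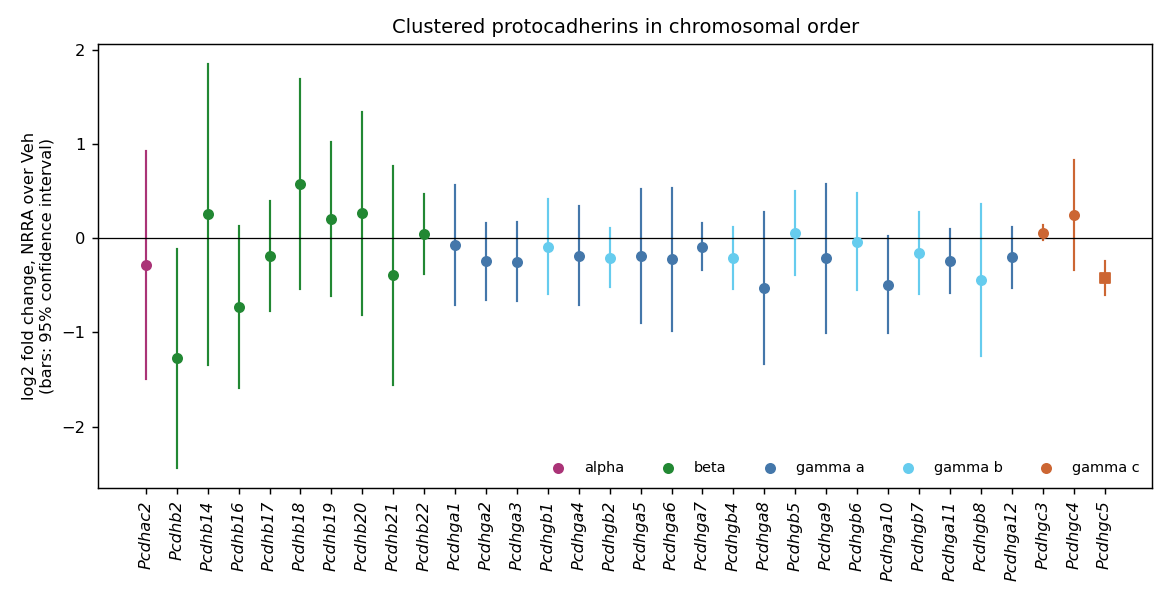
Log2 fold change of NRRA over Veh (y axis) for the 32 tested clustered protocadherins in chromosomal order, with points for edgeR estimates, bars for 95% confidence intervals and colours for the groups. All gamma a and 6 of 7 gamma b points lie below 0, their intervals include 0, and the square, Pcdhgc5 at -0.42, is the 1 called member.

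Partners of the cadherins were read from lists of genes chosen by function, and their counts stand beside shares of 27.9% called higher, 28.4% called lower and 56.4% called either way over all genes tested. Of 13 catenins and anchors 12 were tested, 5 rose and 3 fell, with a median log2 fold change of 0.052. β-Catenin (Ctnnb1), the most abundant, measured 695 and 700 CPM in Veh and 724 and 717 CPM in NRRA and was not called (log2 fold change 0.047, edgeR adjusted p = 0.0795), although it was called higher with libraries scaled to their totals alone. The extremes were neural α-catenin (Ctnna2), 24 and 28 counts in Veh against 104 and 84 in NRRA (log2 fold change 1.71, edgeR adjusted p = 2.5e-06), and afadin (Afdn) at -0.29. Among 5 nectins, immunoglobulin-like partners at the same junctions, 2 rose and 2 fell, from Nectin1 at 0.46 to Pvr at -0.97. Of 13 desmosome genes 6 were tested and 3 rose, with Pkp3 highest at 1.71 and Pkp2 the most abundant at 17.8 and 16.1 CPM in Veh and 33.3 and 29.4 CPM in NRRA, while desmoplakin (Dsp) was not called.

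Large and atypical cadherins, the relatives outside the numbered series, were mostly higher. Of 17 genes 14 were tested, 9 rose and 1 fell, beside 27.9% and 28.4% of all genes, with a median log2 fold change of 0.84 against 0.00029 over all genes. Cdhr1, known from photoreceptors, had the highest value, with 11 and 3 counts in Veh against 56 and 63 in NRRA (log2 fold change 2.92, SE 0.43, edgeR adjusted p = 1.71e-06). The Veh libraries differed, and the log2 fold change was 4.18 without Veh replicate 1, where it rests on 3 counts, and 2.22 without Veh replicate 2. Fat1, the most abundant, measured 958 and 945 CPM in Veh and 864 and 878 CPM in NRRA (log2 fold change -0.13, edgeR adjusted p = 1.66e-05), a call that was lost with libraries scaled to their totals (adjusted p = 0.146).

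The 9 repressors that bind E-boxes of cadherin promoters were all tested, and 7 fell and 1 rose, beside 28.4% and 27.9% of all genes, with a median log2 fold change of -0.43. Twist1 had the lowest value at -0.91 and is also on the fibroblast list, Zeb1 the highest at 0.22, and Tcf3, the most abundant, was not called (-0.0086). The list of proteases held 10 genes, for proteases that cut cadherins or for subunits of such proteases, and 2 rose and 4 fell. Mmp14 had the lowest value and the highest mean level over all libraries, at 216 and 209 CPM in Veh and 101 and 101 CPM in NRRA (log2 fold change -1.07, edgeR adjusted p = 1.01e-19). The subunit Ncstn had the highest value, at 0.25. Of 13 regulators of the protocadherin clusters, 5 rose and 6 fell, with the silencing factor Rest lowest at -0.84, Wiz highest at 0.55, the cohesin subunit Rad21 the most abundant at 0.23, and a median of -0.0061. Of 11 effectors downstream of protocadherins 6 rose and 4 fell, from the kinase Fyn at -0.96 to Wnk1, also the most abundant, at 0.37.

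**Figure D5:**
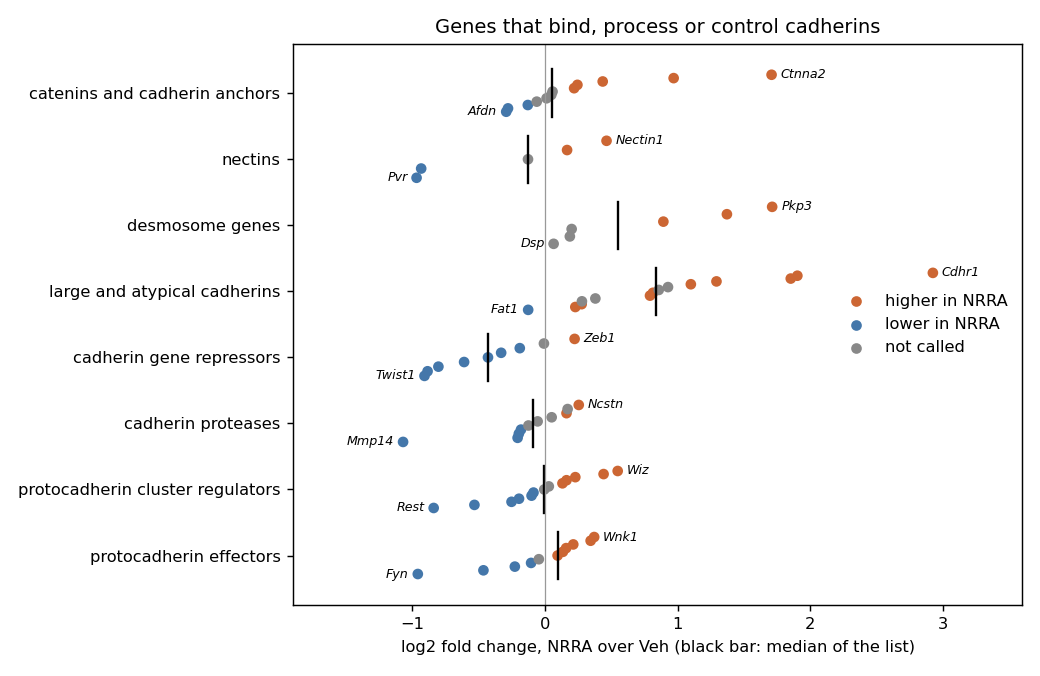
Log2 fold change of NRRA over Veh (x axis) for the tested genes of 8 lists of cadherin partners and regulators, 1 point a gene, coloured by the edgeR call, with a black bar at the median of each list and names at the lowest and highest gene. Large and atypical cadherins lie mostly to the right with a median of 0.84, and repressors mostly to the left with a median of -0.43.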

How the data were processed

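The deposited table holds raw counts of reads per gene, 1 column for each library. The paper describes poly(A)-selected, stranded paired-end libraries. Per the labels, the authors used bcl2fastq, STAR 2.6.1c and featureCounts 1.6.4 with build mm10, and the annotation release and strand setting are not given in the sources used here. The counts were tested in R 4.3.3 with edgeR 4.0.16 (filterByExpr, TMM scaling, robust quasi-likelihood F test, Benjamini-Hochberg adjustment over 20232 genes, threshold 0.05). CPM are TMM-scaled, SE is the log2 fold change divided by the root of F, and the code was tested on simulated data. Gene positions, lengths and overlaps were taken from GENCODE M21 on GRCm38, which held 99.7% of the gene IDs (bedtools 2.31.1, BLAST 2.17.0). Alternatives were other scalings, other filters, a fit without robust moderation, a replicate block, DESeq2 1.42.0 and leaving out each library. The members, as a family set by a name pattern, and the lists were chosen with earlier results of these data known. Named were all tested members outside the clusters, the 2 most abundant and the extreme members of each cluster group, and the extremes and the most abundant gene of each list. Replicates within a group differed by more than sampling noise (chi-square per degree of freedom 2.45 in Veh and 1.99 in NRRA), so none was taken as a repeat of another. That excess does not show whether the libraries came from separate cultures. The spread was small, with a common coefficient of variation between replicates, beyond counting, of 2.61% in edgeR, and the adjusted p-values rest on it. Total counts of 28022265 to 31604769 per library set the precision, the floors for counts cover counting error only, and the 95% intervals of fold changes come from the edgeR fit and include the spread between libraries. No set test was run.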

Additional observations from a re-analysis of the deposited data

How the results depend on the processing

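No member called in the reported fit was called in the opposite direction under any alternative run. The number of called members was 21 in the reported fit, 21 with DESeq2 size factors in edgeR, 21 without robust moderation, 23 with library totals, 23 without a filter (84 members tested), 19 with at least 1 CPM in at least 2 libraries (45 tested), 22 with a replicate block, 14 with DESeq2 (65 tested), and 18 to 20 when 1 library was left out. With library totals the median log2 fold change of all genes moved by 0.09 and the share of higher calls from 49.6% to 60.3%. Same-numbered libraries did not deviate together (correlation -0.011 over 20232 genes), so no shared shift was seen, which cannot decide whether the samples were paired. The numbers follow the titles, while the count columns number the Veh libraries otherwise. The block raised the count to 22 by adding Pcdh9 (log2 fold change 0.36), and no named call was lost.

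With DESeq2, type I cadherins called higher went from 2 to 0, type II called higher from 3 to 1 and lower from 2 to 1, non-clustered protocadherins called higher from 3 to 1, proteases called higher from 2 to 1 and lower from 4 to 2, nectins from 2 to 1 each way and effectors called lower from 4 to 2. With library totals, clustered protocadherins called higher went from 0 to 1 (Pcdhgc3), repressors called higher from 1 to 2, proteases called higher from 2 to 4 and lower from 4 to 2, large cadherins called lower from 1 to 0 and effectors called lower from 4 to 2. With at least 1 CPM in at least 2 libraries, type II called lower went from 2 to 1, since Cdh22 was no longer tested. Leaving out 1 library gave 0 to 2 type I cadherins called higher, 1 to 2 type II called lower, 0 to 1 clustered protocadherins called higher (Pcdhb14, without Veh replicate 2, against 0 counts), 1 to 2 called lower (Pcdhga10 added, without NRRA replicate 1), 1 to 2 proteases called higher, 2 to 4 called lower and 1 to 2 nectins called lower. The cause of the other shifts was not tested.

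Sign changes were confined, among the named genes and these alternatives, to genes not called in the reported fit. With library totals these were Pcdh18 (0.081), Pcdhga1 (0.015) and Tcf3 (0.081). Leaving out 1 library changed the sign of Cdh18 (-0.49 to 0.14), Cdh6 (-0.0033 to 0.66), Dsp (-0.030 to 0.16), Pcdh18 (-0.069 to 0.056), Pcdh20 (-0.37 to 1.40), Pcdhac2 (-0.84 to 0.13), Pcdhb17 (-0.54 to 0.082), Pcdhb18 (-0.12 to 1.06), Pcdhb22 (-0.037 to 0.12), Pcdhga1 (-0.25 to 0.10), Pcdhga8 (-0.97 to 0.053), Pcdhgb5 (-0.21 to 0.40) and Tcf3 (-0.042 to 0.022), each with its range of log2 fold changes. Among the 60 tested members, the SE of the log2 fold change ranged from 0.040 for Pcdhgc3, at 2619 to 3383 counts a library, to 0.77 for Pcdhb14, at 0 to 13 counts.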
